A study of Homo sapiens with 12 samples.

Results

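The genes described here are the lineage regulators and pigment genes of melanocytes: MITF, SOX10, PMEL, MLANA, TYR, TYRP1, DCT, GPR143, MLPH and RAB27A. They were taken by symbol from a deposited table of read counts, in which these 10 genes are 10 of 75249 rows used. The table holds 12 RNA sequencing libraries from A375 and LOX-IMVI BR, a pair of established human metastatic melanoma cell lines. Each line was given a control treatment, 6-thio-dG at 5 µM or BIBR1532 at 25 µM, which makes 6 groups of 2 libraries that the labels call biological replicates. 6-thio-dG is a nucleoside analogue built on thioguanine, a substrate that telomerase can put into telomere ends, and BIBR1532 is a synthetic inhibitor of telomerase. The genetic background of each line, what BR stands for, the control vehicle and the exposure time are not given in the sources used here. Each line is a single model, so a difference between the lines is one between 2 cultures and cannot be told apart from anything else in which they differ. The labels do not say whether replicates were separate cultures, so the p-values measure the spread between these libraries, which may be technical.

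Melanocytes arise from the neural crest, where the transcription factor SOX10 turns on MITF, and MITF in turn drives the genes of the melanosome, the organelle that makes and stores pigment. PMEL forms the fibrils on which melanin is laid down, TYR, TYRP1 and DCT are the enzymes of melanin synthesis, and MLANA and GPR143 are melanosome membrane proteins. RAB27A and its adaptor MLPH tether mature melanosomes to the motor that carries them along actin. Melanomas keep or lose this programme to different degrees, and a state with low MITF and high AXL is a well known alternative to the pigmented one.

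MITF binds CATGTG, often within the longer M-box TCATGTG, and the promoters of the 10 genes were searched for these letters. RefSeq promoter windows on GRCh38.p14 were found for 8 of the 10 genes, with 16 start sites in all, and the 250 bases before each start were searched on both strands. TCATGTG occurred in 2.52% of the 35116 windows of all genes, and the shorter CATGTG that it contains in 9.42%. TYR, TYRP1, DCT and GPR143 each held TCATGTG. The most downstream of the 3 MITF starts, from which the melanocyte isoform is made, held the cyclic AMP response element TGACGTCA, present in 1.65% of windows. MLPH held CACGTG, another E-box, which 6.34% of windows held, at -35. The 160 bases before each start follow, 5′ to 3′ on the gene's strand, with TGACGTCA and TCATGTG in capitals. A CATGTG outside the M-box, at -12 in TYR and on the opposite strand at -11 in TYRP1, is left in lower case. They are shown because MITF is known to act through the M-box, and TYR, TYRP1, DCT and GPR143 are the genes of the set that held it, beside the start of MITF itself.
MITF, chr3:69936432-69936591, plus strand, TGACGTCA at -152: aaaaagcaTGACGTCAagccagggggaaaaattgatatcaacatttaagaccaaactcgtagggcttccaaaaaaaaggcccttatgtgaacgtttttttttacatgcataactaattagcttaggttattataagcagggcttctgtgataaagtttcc
TYR, chr11:89177715-89177874, plus strand, TCATGTG at -105: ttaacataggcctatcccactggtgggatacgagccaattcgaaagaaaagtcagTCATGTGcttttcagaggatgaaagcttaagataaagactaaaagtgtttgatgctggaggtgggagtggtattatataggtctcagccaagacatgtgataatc
TYRP1, chr9:12693225-12693384, plus strand, TCATGTG at -145: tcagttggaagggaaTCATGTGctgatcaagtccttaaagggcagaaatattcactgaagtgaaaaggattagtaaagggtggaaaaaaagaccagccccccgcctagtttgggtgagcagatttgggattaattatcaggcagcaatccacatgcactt
DCT, chr13:94479683-94479842, minus strand, TCATGTG at -135: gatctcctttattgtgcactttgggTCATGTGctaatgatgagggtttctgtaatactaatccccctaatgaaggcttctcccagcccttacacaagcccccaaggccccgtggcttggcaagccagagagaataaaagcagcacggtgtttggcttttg
GPR143, chrX:9765848-9766007, minus strand, CACATGA, the reverse complement of TCATGTG, at -61 and -33: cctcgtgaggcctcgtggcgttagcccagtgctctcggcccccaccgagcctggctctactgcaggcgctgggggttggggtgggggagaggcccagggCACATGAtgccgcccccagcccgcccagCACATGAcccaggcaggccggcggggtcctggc
A match describes letters in a window and says nothing of whether MITF was bound there in these cells.

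Library totals ran from 11813388 to 25822381 counts. Levels are given as TMM-scaled CPM, the counts of a gene relative to a library total scaled by edgeR, with the 2 libraries of a group in replicate order. A gene was called where edgeR's quasi-likelihood test gave a Benjamini-Hochberg adjusted p under 0.05 over the 29114 genes tested, and 8 of the 10 genes were tested. TYR and DCT had too few counts for a test. The median difference between replicates, over genes, was 0.35 and 0.44 on the log2 scale in the control and 6-thio-dG groups of A375 and between 0.08 and 0.13 in the other 4 groups, while all 6 groups share 1 estimate of the spread in the test. Upper-quartile scaling, tried in place of TMM, moved the median log2 fold change of all genes up by 0.40 for 6-thio-dG in A375, by 0.21 for BIBR1532 in A375 and by 0.23 for 6-thio-dG in LOX-IMVI BR. Among called genes it raised the share with higher levels from 54.6% to 80%, from 53.8% to 66.4% and from 57.8% to 73.5% in the same 3 comparisons. Differences also varied with GC content. Between the untreated lines, genes with 29.8 to 42.1% GC had a median log2 difference of 0.73, LOX-IMVI BR against A375. In genes with 56.9 to 80.8% GC it was -0.78. Genes with low GC content were lower after both compounds in A375. In the 3592 symbol-named genes with 29.8 to 42.1% GC, which includes MITF, TYRP1, MLANA and RAB27A, the median log2 fold change was -0.69 with 6-thio-dG and -0.96 with BIBR1532, against -0.25 and -0.15 over all symbol-named genes. Values of these 4 genes are therefore also given after a correction for GC content where it changes a call or moves the fold change, not its log2, by over 1.5 times. Smaller moves are mostly left out. The corrected fit tested 14362 genes and called a larger share of them. In A375 it called 34.3% with 6-thio-dG and 29.8% with BIBR1532, against 18.1% and 15.8% without the correction. In LOX-IMVI BR it called 29.6% and 10.8%, against 17% and 3.59%. A gene that passed only after the correction therefore passed in a fit that called more genes.

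The untreated lines held very different parts of the programme. A375 had a high level of SOX10 and intermediate MITF and MLPH, whereas LOX-IMVI BR had RAB27A above the rest, 25 counts of SOX10 over both libraries and 3 of MLPH. Per kilobase of transcript, A375 control had SOX10 at 191 CPM per kb, MITF at 8.32, MLPH at 7.74 and RAB27A at 1.36. On the same scale the other 6 genes of A375 were at 0.24 or below: GPR143, TYRP1, PMEL, MLANA, DCT and TYR in descending order. The neighbours MITF and MLPH did not differ beyond their spread, nor did GPR143 and TYRP1. LOX-IMVI BR control had RAB27A at 9.65 CPM per kb and MITF at 1.56, and TYRP1 came next at 0.37, with MLANA at 0.22 and SOX10 at 0.21, which did not differ beyond their spread. PMEL, MLANA, TYR, TYRP1, DCT and GPR143 were at 1.31 CPM or below in every untreated library, so of the defining melanocyte genes SOX10, MITF, MLPH and RAB27A were above 1 CPM per kb in A375, and RAB27A and MITF in LOX-IMVI BR. TYRP1, with 44 counts in the LOX-IMVI BR control, was the most abundant of the 3 melanin enzymes in that line, where TYR and DCT had no count.

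**Figure D1:**
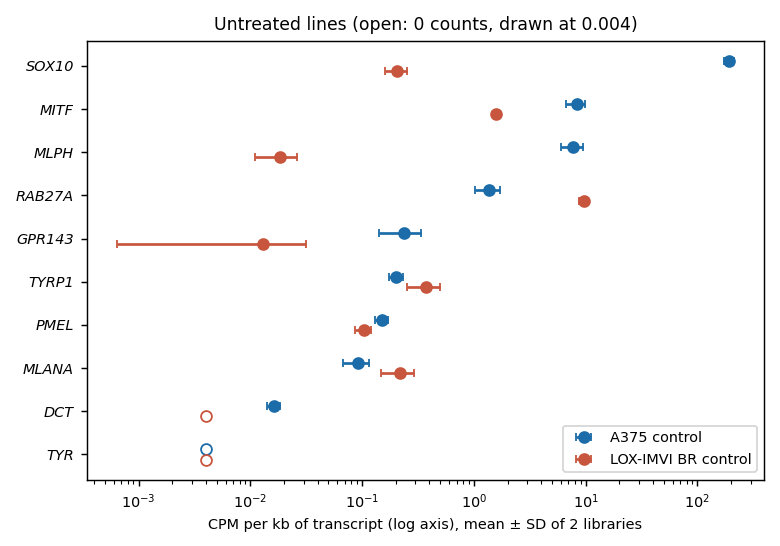
Mean level of each gene in the untreated lines, in CPM per kb of transcript on a log axis, with bars of 1 SD over 2 libraries (a bar that would reach 0 is shortened) and open circles for 0 counts. A375 points span SOX10 at 191 to TYR at 0 counts, while in LOX-IMVI BR only RAB27A and MITF lie above 1.

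SOX10, the neural crest regulator, was at 512 and 590 CPM in A375 control and at 0.50 and 0.68 CPM in LOX-IMVI BR control. The groups did not overlap, and the log2 difference was -9.84 ± 0.49 (SE, edgeR adjusted p = 5.31e-09). MITF was at 45.6 and 34.5 CPM in A375 control and at 7.23 and 7.83 CPM in LOX-IMVI BR control, lower by 5.32-fold (log2 -2.41 ± 0.50, edgeR adjusted p = 0.00114). After the GC correction the MITF difference was -3.17 (edgeR adjusted p = 1.53e-06). LOX-IMVI BR thus kept MITF transcript with almost no SOX10 transcript. Counts per gene do not say from which of the 3 MITF starts that transcript came. MLPH was at 34.4 and 24.8 CPM in A375 control, from 1194 counts, while the LOX-IMVI BR control libraries held 3 counts together. The ratio was 441-fold, with a 95% counting interval of 151 to 2142. RAB27A went the other way, at 5.53 and 3.89 CPM in A375 control and at 35.7 and 31.1 CPM in LOX-IMVI BR control, 6.99-fold higher (log2 2.80 ± 0.37, edgeR adjusted p = 2.07e-05). The 2 partners of the transport complex were therefore each higher in the line where the other was lower. The 2 lower levels were not alike, as A375 control still held 191 counts of RAB27A. After the GC correction the RAB27A difference was 1.67 (edgeR adjusted p = 0.000209). GPR143 had 14 counts in the A375 control and 1 count in the LOX-IMVI BR control, a 15.5-fold ratio with a counting interval of 2.36 to 656. Its call was lost without A375 control replicate 2 (edgeR adjusted p = 0.0563) and without LOX-IMVI BR control replicate 1 (edgeR adjusted p = 0.091). In all, 5 of the 8 tested genes were called between the untreated lines, in a comparison that called 49.8% of all genes tested. PMEL, MLANA and TYRP1 did not pass, with log2 differences of -0.48 ± 0.58, 1.14 ± 0.70 and 0.90 ± 0.47. After the GC correction those of MLANA and TYRP1 were 0.34 and 0.03.

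**Figure D2:**
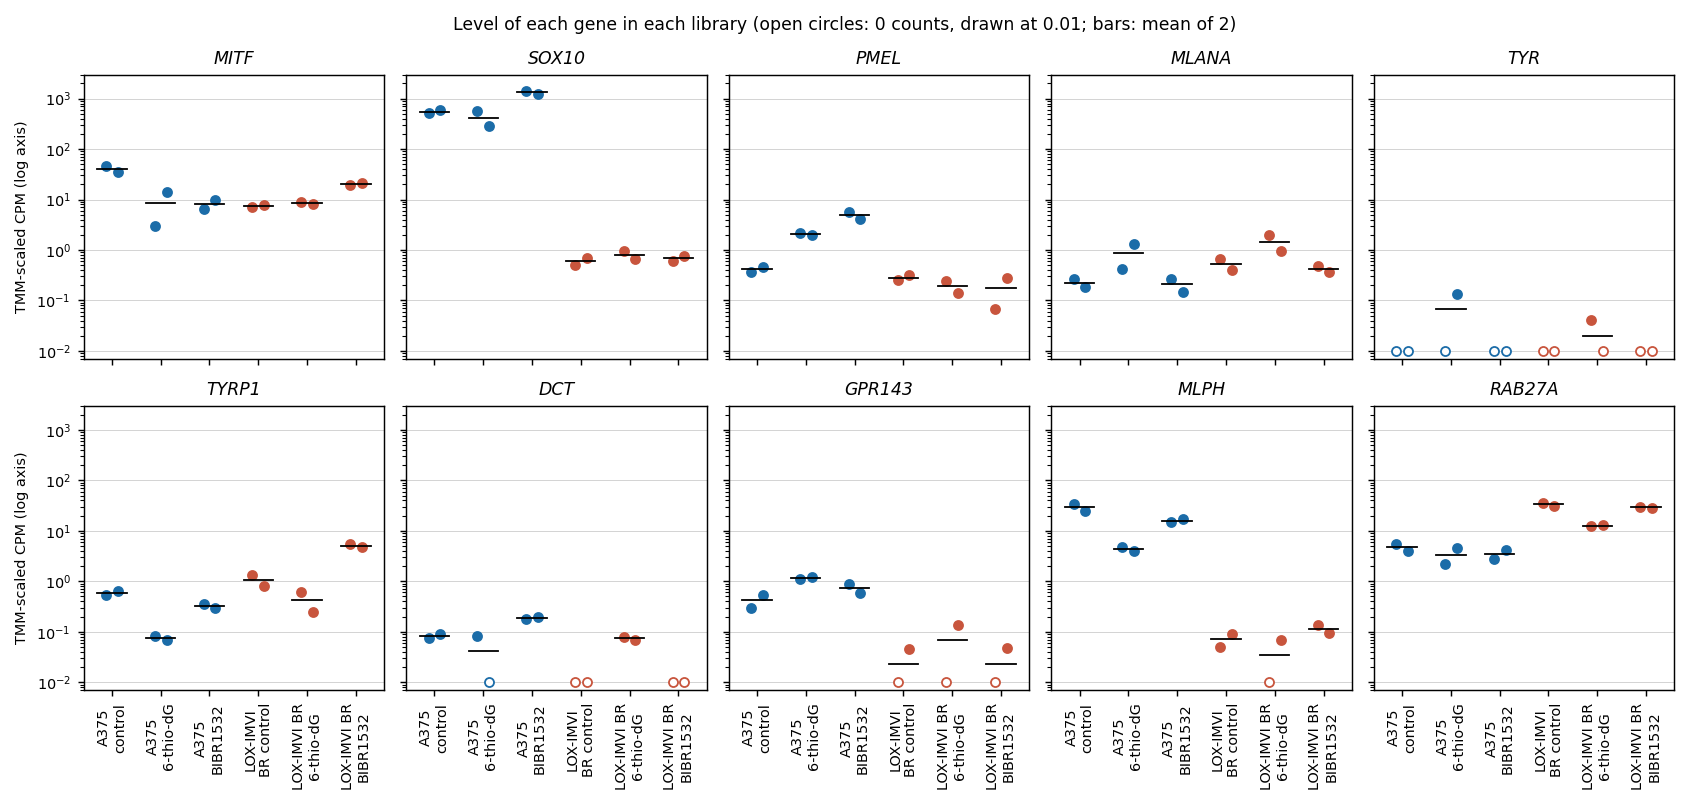
TMM-scaled CPM of each gene in each of the 12 libraries, on a log axis, with a bar at the mean of the 2 libraries of a group and open circles for 0 counts. MITF drops from about 40 to about 8 CPM in treated A375 and lies at 20 CPM in LOX-IMVI BR with BIBR1532, while TYR and DCT stay at the level of single counts in every group.

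In A375, 6-thio-dG lowered MITF, MLPH and TYRP1 and raised PMEL. These 4 of 8 tested genes compare with 18.1% of all genes called in that comparison, a share of 14.2% to 32.8% when single libraries were left out, highest without 6-thio-dG replicate 2. MITF, the master regulator of the set, was at 45.6 and 34.5 CPM in the control and at 2.92 and 14.2 CPM with 6-thio-dG. Both treated libraries were below both controls, but they lay far apart from each other. The log2 fold change was -2.22 ± 0.50 (edgeR adjusted p = 0.00889). It was -1.51 without 6-thio-dG replicate 1 and -3.79 without replicate 2, and -1.77 after the GC correction (edgeR adjusted p = 0.000567). The call was lost without A375 control replicate 1 (edgeR adjusted p = 0.0626) and in a fit of the A375 libraries alone (edgeR adjusted p = 0.0778). SOX10, which lies upstream of MITF, was at 559 and 284 CPM with 6-thio-dG, and its libraries overlapped those of the control. Its log2 fold change of -0.39 ± 0.32 did not pass (edgeR adjusted p = 0.424), was 0.08 with upper-quartile scaling and was -0.75 after the GC correction, where it passed (edgeR adjusted p = 0.0122). It also passed without 6-thio-dG replicate 1, at -0.96 (edgeR adjusted p = 0.0369).

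MLPH, the adaptor that links RAB27A to the motor, had the firmest fall of the set with 6-thio-dG in A375. Its level was 34.4 and 24.8 CPM in the control and 4.84 and 3.96 CPM with the compound, a 6.75-fold fall (log2 -2.75 ± 0.35, edgeR adjusted p = 0.000289). This call was kept in every alternative run. RAB27A itself was at 5.53 and 3.89 CPM in the control and at 2.17 and 4.50 CPM with 6-thio-dG, with overlapping libraries (log2 -0.50 ± 0.37, edgeR adjusted p = 0.367). Without 6-thio-dG replicate 2 its value was -1.16 (edgeR adjusted p = 0.0296), and after the GC correction it was 0.23.

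PMEL, the fibril protein, was the gene that rose in A375 with 6-thio-dG, from 0.37 and 0.45 CPM to 2.17 and 1.95 CPM (5.06-fold, log2 2.34 ± 0.47, edgeR adjusted p = 0.00453). The rise started from 15 counts in the 2 control libraries, against 55 counts with 6-thio-dG, and the call was kept in every alternative run. MLANA was at 0.26 and 0.18 CPM in the control and at 0.42 and 1.34 CPM with the compound, which did not pass (log2 1.92 ± 0.68, edgeR adjusted p = 0.0638). It passed after the GC correction (log2 2.51, edgeR adjusted p = 0.00863), with upper-quartile scaling (log2 2.27, edgeR adjusted p = 0.018) and without 6-thio-dG replicate 1 (log2 2.47, edgeR adjusted p = 0.0257). GPR143, the melanosome receptor, was at 0.30 and 0.54 CPM in the control and at 1.09 and 1.21 CPM with 6-thio-dG (log2 1.57 ± 0.62, edgeR adjusted p = 0.0887). It passed only with upper-quartile scaling among the alternatives run (log2 1.95, edgeR adjusted p = 0.0287).

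The 3 melanin enzymes were scarce in A375. TYRP1 was at 0.52 and 0.63 CPM in the control, from 21 counts, and had 2 counts with 6-thio-dG. That is a 7.46-fold fall with a 95% counting interval of 1.82 to 65.7 (edgeR adjusted p = 0.029). The call was lost without each of the 4 libraries in turn (edgeR adjusted p from 0.0583 to 0.0829), after the GC correction (log2 -2.29, edgeR adjusted p = 0.0696, and 0.0806 with the replicate block) and in the DESeq2 test (adjusted p = 0.0523). TYR, the rate-limiting enzyme, had no count in A375 apart from 2 counts in 6-thio-dG replicate 2. With no counts, 3 counts set the limit, which was 0.0794 CPM in the A375 control group. DCT had 3 counts in the control group, 1 with 6-thio-dG and 8 with BIBR1532.

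**Figure D3:**
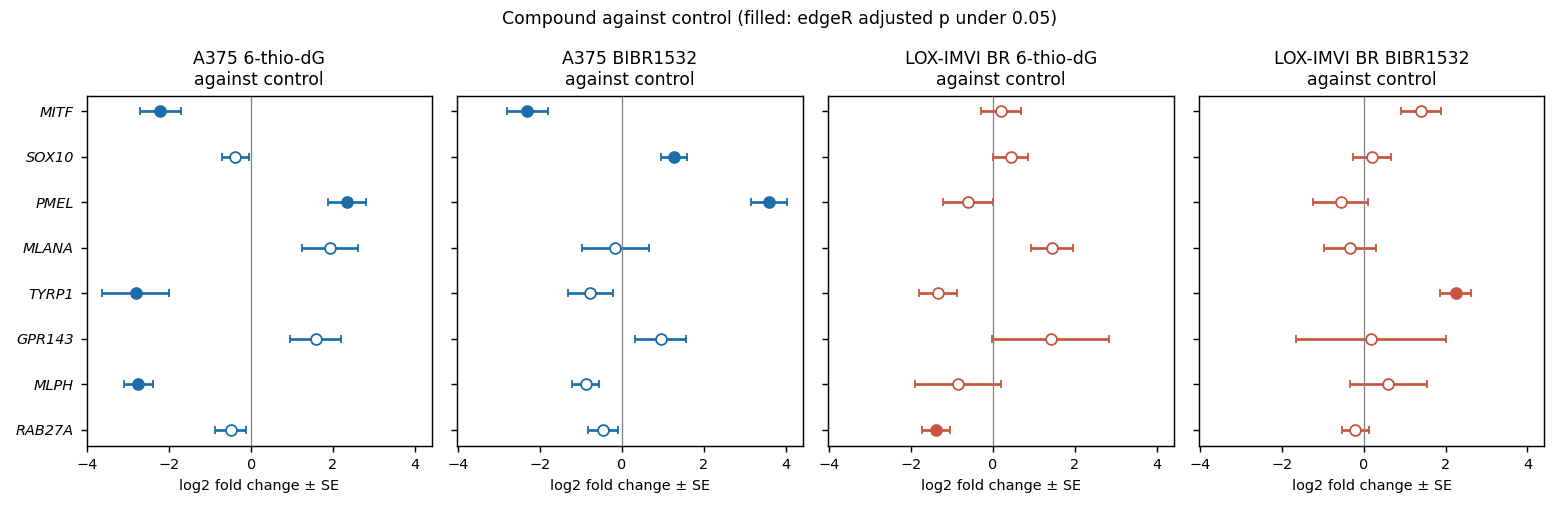
Log2 fold change of each tested gene against the control of its line, with bars of 1 SE from the edgeR fit and filled points where the adjusted p was under 0.05. PMEL and MITF lie on opposite sides of 0 with both compounds in A375, and in LOX-IMVI BR only RAB27A with 6-thio-dG and TYRP1 with BIBR1532 are filled.

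BIBR1532 in A375 called 3 of the 8 tested genes, with 15.8% of all genes called: MITF fell while SOX10 and PMEL rose. The share of all genes was 2.97% and 3.11% without BIBR1532 replicate 1 or 2, and 9.88% without control replicate 2. The 2 compounds were set against the same control libraries, so their results in a line are not independent. MITF was at 6.46 and 9.65 CPM with BIBR1532, below both controls (4.98-fold lower, log2 -2.32 ± 0.50, edgeR adjusted p = 0.00825). After the GC correction the fall was -1.57 (edgeR adjusted p = 0.00124). The call was lost without control replicate 1 (edgeR adjusted p = 0.058), without BIBR1532 replicate 1 (0.119) or replicate 2 (0.0854), and in a fit of A375 alone (0.0813), each an edgeR adjusted p. SOX10 was at 512 and 590 CPM in the control and at 1412 and 1248 CPM with BIBR1532, a 2.41-fold rise (log2 1.27 ± 0.33, edgeR adjusted p = 0.0198). That call was lost without BIBR1532 replicate 1 (0.159) or replicate 2 (0.077) and in a fit of A375 alone (0.134), each an edgeR adjusted p. In the same libraries, then, the SOX10 transcript was higher and the MITF transcript lower than in the control.

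PMEL had its highest level of the series with BIBR1532 in A375, at 5.70 and 4.12 CPM from 212 counts. It rose 12.1-fold over the control (log2 3.59 ± 0.44, edgeR adjusted p = 0.000125), and the call was kept in every alternative run. MLPH was at 15.1 and 16.9 CPM, below both controls, and did not pass (log2 -0.89 ± 0.32, edgeR adjusted p = 0.0729), though it passed after the GC correction (log2 -0.95, edgeR adjusted p = 0.0258) and without control replicate 2 (log2 -1.10, edgeR adjusted p = 0.041). MLANA, TYRP1, GPR143 and RAB27A did not pass, with log2 fold changes of -0.17 ± 0.82, -0.78 ± 0.55, 0.95 ± 0.62 and -0.46 ± 0.36. With the GC correction MLANA was at 0.71, RAB27A at 0.65 and TYRP1 at 0.14, all on the other side of 0.

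The compounds, given at different doses, were also set against each other within A375, where 4 of the 8 tested genes were called and 16% of all genes (5.31% and 6.14% without BIBR1532 replicate 1 or 2, and 25.8% without 6-thio-dG replicate 1). With 6-thio-dG, MLPH was 3.64-fold lower than with BIBR1532 (log2 -1.86 ± 0.35, edgeR adjusted p = 0.00229), a call kept in every alternative run. SOX10 was 3.15-fold lower with 6-thio-dG (log2 -1.66 ± 0.33, edgeR adjusted p = 0.00375), and its call was lost in a fit of A375 alone (edgeR adjusted p = 0.0511). PMEL was 2.39-fold lower (edgeR adjusted p = 0.0285) and MLANA 4.26-fold higher (edgeR adjusted p = 0.0475). The PMEL call was lost without 6-thio-dG replicate 2 (0.0543), without BIBR1532 replicate 1 (0.24), in a fit of A375 alone (0.148), with upper-quartile scaling (0.0662) and with the replicate block (0.0562), each an edgeR adjusted p. The MLANA call was lost in the DESeq2 test (0.105), without 6-thio-dG replicate 2 (0.484) and without BIBR1532 replicate 1 (0.135) or replicate 2 (0.32), each an adjusted p. It was also lost with DESeq2 size factors (0.065), the filter of 1 CPM (0.0771), the replicate block (0.0629) and symbol-named genes only (0.0606), each an edgeR adjusted p. MITF did not pass, at a log2 difference of 0.10 ± 0.49. Without 6-thio-dG replicate 2 the MITF difference reversed to -1.47 and passed (edgeR adjusted p = 0.0102).

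In LOX-IMVI BR, 6-thio-dG lowered RAB27A, the GTPase that is the most abundant gene of the set in that line. Its level was 35.7 and 31.1 CPM in the control and 12.2 and 13.1 CPM with 6-thio-dG, a 2.63-fold fall (log2 -1.40 ± 0.35, edgeR adjusted p = 0.0123). It was the 1 called of 8 tested genes, with 17% of all genes called, and with 4.9% to 5.94% of them when any 1 of the 4 libraries was left out. The call was lost without each of the 4 libraries in turn (edgeR adjusted p from 0.0619 to 0.13), with values between -1.51 and -1.31, and was kept after the GC correction (log2 -1.31, edgeR adjusted p = 0.00228). MITF did not pass, at 8.90 and 8.31 CPM against 7.23 and 7.83 CPM in the control (log2 0.19 ± 0.49, edgeR adjusted p = 0.857).

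MLANA and TYRP1 of LOX-IMVI BR lay just outside the threshold with 6-thio-dG. MLANA, a melanosome membrane protein, was at 0.65 and 0.41 CPM in the control, 22 counts, and at 1.96 and 0.97 CPM with the compound, 77 counts (log2 1.45 ± 0.51, edgeR adjusted p = 0.0665). TYRP1 was at 1.31 and 0.82 CPM in the control and at 0.60 and 0.24 CPM with 6-thio-dG (log2 -1.34 ± 0.46, edgeR adjusted p = 0.0567). Neither gene's groups overlapped. In a fit of the LOX-IMVI BR libraries alone, both passed (edgeR adjusted p = 0.00169 for MLANA and 0.00417 for TYRP1). That fit called 62.8% of the genes it tested, against 17% in the shared fit. MLANA also passed after the GC correction (edgeR adjusted p = 0.0181), with upper-quartile scaling (edgeR adjusted p = 0.0232) and with no low-count filter (edgeR adjusted p = 0.0335).

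BIBR1532 in LOX-IMVI BR raised TYRP1, a melanin enzyme, from 1.31 and 0.82 CPM to 5.41 and 4.68 CPM. The rise was 4.74-fold (log2 2.25 ± 0.38, edgeR adjusted p = 0.00333), from 44 to 179 counts. It was the 1 called of 8 tested genes, with 3.59% of all genes called in that comparison (0.661% to 1.27% when any 1 of the 4 libraries was left out), and it was kept after the GC correction (log2 2.10, edgeR adjusted p = 0.00426). It was lost without control replicate 2 (log2 1.94, edgeR adjusted p = 0.127). MITF was at 19.0 and 21.0 CPM with BIBR1532 and at 7.23 and 7.83 CPM in the control, 2.66 times the control level, with both treated libraries above every other library of the line. In the shared fit this did not pass (log2 1.41 ± 0.49, edgeR adjusted p = 0.149). It passed in a fit of LOX-IMVI BR alone (log2 1.35, edgeR adjusted p = 1.73e-11), after the GC correction (log2 1.29, edgeR adjusted p = 0.00658) and with no low-count filter (log2 1.37, edgeR adjusted p = 0.0149). In that order, these fits called 44.8%, 10.8% and 2.66% of the genes they tested, against 3.59% in the shared fit. SOX10 stayed between 0.50 and 0.96 CPM in all 6 libraries of the line. PMEL, MLANA and RAB27A had log2 fold changes of -0.56 ± 0.67, -0.32 ± 0.64 and -0.20 ± 0.34 with BIBR1532. RAB27A passed in a fit of LOX-IMVI BR alone (log2 -0.26, edgeR adjusted p = 0.0107), in which 44.8% of all genes were called.

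MLPH, GPR143, TYR and DCT were at the level of single counts in LOX-IMVI BR. MLPH had 3, 2 and 4 counts in the control, 6-thio-dG and BIBR1532 groups, and GPR143 had 1, 4 and 1. TYR had 1 count in the whole line, with 6-thio-dG, and DCT had 4 counts, all with 6-thio-dG. A fall in these 4 genes was not detectable at this depth, where 3 counts correspond to 0.0716 CPM over the control group. MLPH and GPR143, which were tested, did not pass with 6-thio-dG (edgeR adjusted p = 0.677 and 0.568) or with BIBR1532 (edgeR adjusted p = 0.867 and 1).

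Between the compounds in LOX-IMVI BR, 3 of the 8 tested genes were called, with 20.6% of all genes called (7.75% to 8.72% when any 1 of the 4 libraries was left out). TYRP1 was 12.02-fold lower with 6-thio-dG than with BIBR1532 (log2 -3.59 ± 0.42, edgeR adjusted p = 4.63e-05), which was kept in every alternative run. RAB27A was 2.29-fold lower (edgeR adjusted p = 0.0234) and MLANA 3.42-fold higher with 6-thio-dG (edgeR adjusted p = 0.0329). The RAB27A call was lost without each of the 4 libraries in turn, with edgeR adjusted p from 0.111 to 0.176. It was also lost with upper-quartile scaling (0.0864), the filter of 1 CPM (0.0516) and symbol-named genes only (0.0972), each an edgeR adjusted p. The MLANA call was lost without 6-thio-dG replicate 1 (edgeR adjusted p = 0.312), without BIBR1532 replicate 1 (0.119) or replicate 2 (0.234), and in the DESeq2 test (0.0957). MITF was 2.32-fold lower with 6-thio-dG, with both libraries below both of BIBR1532, which did not pass (log2 -1.22 ± 0.49, edgeR adjusted p = 0.0915). It passed after the GC correction (log2 -0.99, edgeR adjusted p = 0.00871, and 0.0125 with the replicate block), with no low-count filter (log2 -1.19, edgeR adjusted p = 0.016) and in a fit of LOX-IMVI BR alone (log2 -1.15, edgeR adjusted p = 5.58e-11). In that order, these fits called 32.2%, 30.2%, 12% and 66.9% of the genes they tested, against 20.6% in the shared fit.

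Whether a compound acted differently in the 2 lines was tested directly, as the log2 effect in LOX-IMVI BR minus that in A375. For BIBR1532, 3 of the 8 tested genes were called, with 3.64% of all genes called. That share was 0.449% to 0.661% when any 1 of the BIBR1532 or LOX-IMVI BR control libraries was left out, and 7.19% without A375 control replicate 1. MITF differed by 3.72 ± 0.70 (edgeR adjusted p = 0.0113), from an effect of 1.41 in LOX-IMVI BR and -2.32 in A375. TYRP1 differed by 3.02 ± 0.67 (edgeR adjusted p = 0.0251) and PMEL by -4.16 ± 0.81 (edgeR adjusted p = 0.014). After the GC correction the MITF difference was 2.86 (edgeR adjusted p = 0.000702) and that of TYRP1 was 1.96 (edgeR adjusted p = 0.0727). Those of MLANA and RAB27A, which did not pass, moved from -0.16 to -1.17 and from 0.25 to -1.03. In the 3592 genes of low GC content the median of this difference was 1.24, against 0.26 over all symbol-named genes. The MITF call was lost when either BIBR1532 library of A375, either LOX-IMVI BR control or BIBR1532 replicate 2 of LOX-IMVI BR was left out, with edgeR adjusted p from 0.0534 to 0.0873. The PMEL call was lost without BIBR1532 replicate 1 of A375 (0.0684), BIBR1532 replicate 1 of LOX-IMVI BR (0.0721) or either LOX-IMVI BR control (0.0693 and 0.124). The TYRP1 call was lost without any single BIBR1532 or LOX-IMVI BR control library, with edgeR adjusted p from 0.069 to 0.143.

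For 6-thio-dG, PMEL was the 1 called of 8 tested genes, at a difference of -2.94 ± 0.79 (edgeR adjusted p = 0.0418), with 5.54% of all genes called. That share was 1.5% to 1.54% when any 1 of the 4 LOX-IMVI BR control and 6-thio-dG libraries was left out, and 21.8% without 6-thio-dG replicate 2 of A375. The PMEL call was lost without A375 control replicate 1 (0.0808), 6-thio-dG replicate 1 of A375 (0.0504) or any of the 4 LOX-IMVI BR control and 6-thio-dG libraries (0.1 to 0.234), with no low-count filter (0.0537) and with the replicate block (0.0702), each an edgeR adjusted p. MITF differed by 2.41 ± 0.69, which did not pass (edgeR adjusted p = 0.057). It passed after the GC correction (2.07, edgeR adjusted p = 0.00241), in the DESeq2 test (2.47, adjusted p = 0.0189), with upper-quartile scaling (2.34, edgeR adjusted p = 0.0295), with no low-count filter (2.55, edgeR adjusted p = 0.000166), with the replicate block (2.70, edgeR adjusted p = 0.0468) and without 6-thio-dG replicate 1 (1.68, edgeR adjusted p = 0.0167) or replicate 2 (3.96, edgeR adjusted p = 7.69e-05) of A375. The RAB27A difference of -0.90 ± 0.51 did not pass (edgeR adjusted p = 0.358), and it passed after the GC correction (-1.54, edgeR adjusted p = 0.018, and -1.60 and 0.024 with the replicate block). With that correction 18.7% of the genes tested were called, and 16.4% with the block, against 5.54% without it.

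The genes around this core were followed in 5 lists, each described by counts and medians beside those of all genes. Over all 29114 tested genes the median log2 fold change was 0.03 and -0.04 for 6-thio-dG and BIBR1532 in A375, and 0.05 and 0.04 in LOX-IMVI BR. The genes of the lists all have symbols, and over symbol-named genes the medians were -0.25, -0.15, -0.13 and 0.09 in the same order. The shares of all genes called were 18.1%, 15.8%, 17% and 3.59% in that order. With upper-quartile scaling the medians of the 5 lists, in the order given below, were -0.48, 0.40, -0.27, 0.24 and -0.32 for 6-thio-dG in A375, 0.28, 0.21, 0.49, 0.16 and -0.05 for BIBR1532 in A375, and 0.40, 0.17, -1.31, -0.12 and 0.07 for 6-thio-dG in LOX-IMVI BR, so that some of the medians near 0 change sign. The first list holds regulators and receptors that act upstream of MITF or beside it, of which 13 were tested. With 6-thio-dG in A375, 1 rose and 3 fell, with a median of -0.91 on the log2 scale. With BIBR1532 in A375, 1 rose and 4 fell, with a median of 0.04. In LOX-IMVI BR, 3 rose and 1 fell with 6-thio-dG (median 0.16), and 1 rose with BIBR1532 (median 0.88). The shares called in the 4 comparisons were 30.8%, 38.5%, 30.8% and 7.69% of the 13.

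SOX9, a relative of SOX10, fell in A375 with both compounds and rose in LOX-IMVI BR with 6-thio-dG. It was at 38.1 and 16.8 CPM in A375 control, at 6.76 and 5.10 CPM with 6-thio-dG and at 6.10 and 5.77 CPM with BIBR1532 (log2 -2.22 ± 0.37 for each, edgeR adjusted p = 0.00154 and 0.00139). In LOX-IMVI BR it rose from 22.5 and 23.2 CPM to 51.0 and 55.8 CPM with 6-thio-dG (log2 1.22 ± 0.35, edgeR adjusted p = 0.026). With BIBR1532 there it was at 17.9 and 20.4 CPM, which did not pass (log2 -0.26 ± 0.35, edgeR adjusted p = 0.813). The difference between the lines was called for both compounds, at 3.44 ± 0.51 for 6-thio-dG (edgeR adjusted p = 0.00134) and 1.96 ± 0.50 for BIBR1532 (edgeR adjusted p = 0.0448). The falls in A375 and the 6-thio-dG difference were kept in every alternative run. The rise in LOX-IMVI BR was lost without each of the 4 libraries in turn (edgeR adjusted p from 0.112 to 0.191), and the BIBR1532 difference without A375 control replicate 1 or any single BIBR1532 or LOX-IMVI BR control library (0.0523 to 0.2).

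ERBB3, the neuregulin receptor of the neural crest lineage, was at 254 and 251 CPM in A375 control and at 117 and 79.9 CPM with 6-thio-dG (log2 -1.36 ± 0.30, edgeR adjusted p = 0.008). In LOX-IMVI BR it was near the floor, at 0.30 and 0.14 CPM, and rose to 1.40 and 1.35 CPM with 6-thio-dG (edgeR adjusted p = 0.00122). The effects differed between the lines by 3.997 ± 0.54 (edgeR adjusted p = 0.000739). EDNRB, the endothelin receptor of melanoblasts, rose in LOX-IMVI BR with BIBR1532 from 1.46 and 1.37 CPM to 5.55 and 5.29 CPM (log2 1.94 ± 0.32, edgeR adjusted p = 0.00262). PAX3, which acts with SOX10 on the MITF promoter, was similar in the untreated lines, at 30.6 and 29.1 CPM in A375 and 35.4 and 38.5 CPM in LOX-IMVI BR. PAX3 fell in A375 with BIBR1532, to 15.8 and 14.4 CPM (log2 -0.98 ± 0.28, edgeR adjusted p = 0.0295). The ERBB3 fall was lost with upper-quartile scaling (edgeR adjusted p = 0.0689) and in a fit of A375 alone (0.0723), the EDNRB rise without control replicate 1 (0.0771) or replicate 2 (0.0976), and the PAX3 fall without BIBR1532 replicate 1 (0.198) or replicate 2 (0.19).

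TFEC, a close relative of MITF, rose from very few counts. In A375 it went from 1 count in the control group to 38 counts with 6-thio-dG and 25 with BIBR1532 (edgeR adjusted p = 0.00261 and 0.0209). In LOX-IMVI BR it rose from 6 counts to 79 with 6-thio-dG (edgeR adjusted p = 0.00423). LEF1, a Wnt effector, fell in A375 with 6-thio-dG (log2 -1.28 ± 0.42, edgeR adjusted p = 0.048). TFAP2A, a neural crest factor, fell in LOX-IMVI BR with 6-thio-dG from 65.9 and 64.6 CPM to 26.7 and 28.1 CPM (log2 -1.25 ± 0.38, edgeR adjusted p = 0.035). ZEB2 and CREB1 fell in A375 with BIBR1532 (log2 -2.08 ± 0.57 and -1.76 ± 0.52, edgeR adjusted p = 0.0256 and 0.0342). The TFEC rise with 6-thio-dG in A375 was kept in every alternative run. Its rise with BIBR1532 was lost without control replicate 1 (0.107) or replicate 2 (0.0833) or BIBR1532 replicate 2 (0.158), and that in LOX-IMVI BR without control replicate 2 (0.0587), each an edgeR adjusted p. LEF1 was lost without control replicate 1 (0.153) or 6-thio-dG replicate 2 (0.156), and TFAP2A, ZEB2 and CREB1 without each of their 4 libraries in turn (0.085 to 0.263). After the GC correction CREB1 was at -0.46 (edgeR adjusted p = 0.0721). KIT and IRF4, both textbook melanocyte genes, had too few counts to be tested.

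The second list holds 19 tested proteins of the melanosome and its biogenesis beyond the 10 genes. With 6-thio-dG in A375, 2 rose and 3 fell, with a median log2 fold change of -0.05. The shares called were 26.3% and 15.8% of the 19 with 6-thio-dG and BIBR1532 in A375 and 5.26% with each compound in LOX-IMVI BR, of which that with BIBR1532 in A375 equals the share of all genes and that with 6-thio-dG in LOX-IMVI BR is below it. TSPAN10 rose with both compounds there, from 2.69 and 4.89 CPM to 18.0 and 10.6 CPM with 6-thio-dG (log2 1.95 ± 0.36, edgeR adjusted p = 0.00282) and to 17.2 and 16.7 CPM with BIBR1532 (log2 2.20 ± 0.36, edgeR adjusted p = 0.00128). GPNMB, a glycoprotein related to PMEL, rose with 6-thio-dG from 46.3 and 51.1 CPM to 119 and 121 CPM (log2 1.30 ± 0.27, edgeR adjusted p = 0.0058). OCA2, a melanosomal transporter, fell with 6-thio-dG from 4.60 and 8.69 CPM to 1.59 and 1.54 CPM (log2 -2.06 ± 0.40, edgeR adjusted p = 0.00394). RAB38, which routes enzymes to the melanosome, fell as well (log2 -1.45 ± 0.31, edgeR adjusted p = 0.00602), and so did AP3B1, an adaptor subunit (log2 -1.76 ± 0.47, edgeR adjusted p = 0.02). OCA2 with 6-thio-dG and TSPAN10 with BIBR1532 were kept in every alternative run. With 6-thio-dG, TSPAN10, GPNMB and RAB38 were lost in a fit of A375 alone (edgeR adjusted p = 0.0509, 0.0704 and 0.0726) and AP3B1 without control replicate 1 (0.0788) or replicate 2 (0.0804).

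With BIBR1532 in A375, 1 of the 19 rose and 2 fell (median -0.03). The falls were in LYST, a regulator of lysosome-related organelles (log2 -2.74 ± 0.67, edgeR adjusted p = 0.016), and AP3B1 (log2 -1.90 ± 0.47, edgeR adjusted p = 0.0162). In LOX-IMVI BR, TPCN2, a melanosome ion channel, was the 1 gene to fall with 6-thio-dG (log2 -0.99 ± 0.31, edgeR adjusted p = 0.0394) and RAB38 the 1 with BIBR1532 (log2 -1.45 ± 0.31, edgeR adjusted p = 0.0165). The medians there were -0.06 and -0.02. Each of these 4 calls was lost without each of its 4 libraries in turn (edgeR adjusted p from 0.067 to 0.223).

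Among 4 transport partners of RAB27A and MLPH, SYTL2, an effector that binds RAB27A, changed most often. In LOX-IMVI BR it fell from 56.3 and 51.9 CPM to 10.3 and 9.28 CPM with 6-thio-dG (log2 -2.46 ± 0.36, edgeR adjusted p = 0.000468), the group in which RAB27A fell too. With BIBR1532 it was at 21.9 and 20.5 CPM (log2 -1.35 ± 0.35, edgeR adjusted p = 0.0456). In A375 it fell with 6-thio-dG from 8.11 and 9.69 CPM to 1.84 and 4.77 CPM (log2 -1.41 ± 0.38, edgeR adjusted p = 0.0199). MREG, a regulator of melanosome shedding, rose in LOX-IMVI BR with 6-thio-dG from 8.54 and 8.10 CPM to 17.6 and 17.3 CPM (log2 1.07 ± 0.33, edgeR adjusted p = 0.0349). The SYTL2 fall with 6-thio-dG in LOX-IMVI BR was kept in every alternative run. That in A375 was lost without control replicate 2 (edgeR adjusted p = 0.0538), and that with BIBR1532 and the MREG rise without each of their 4 libraries in turn (0.166 to 0.337). The median of the 4 was -0.65 and 0.25 with 6-thio-dG and BIBR1532 in A375, and -1.55 and -0.21 in LOX-IMVI BR. The shares called were 25% of the 4 with 6-thio-dG in A375, and 50% and 25% with 6-thio-dG and BIBR1532 in LOX-IMVI BR. With BIBR1532 in A375, edgeR called 0 of the 4, with 1 at an unadjusted p under 0.05 and 1 called by DESeq2.

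Of 21 other tested genes linked to MITF, 4 rose and 3 fell with 6-thio-dG in A375 (median log2 fold change -0.20), and 4 rose and 2 fell with BIBR1532 (median -0.06), which are 33.3% and 28.6% of the 21. ACP5 and PIR rose with both compounds although MITF fell. ACP5, an acid phosphatase, went from 3.85 and 6.88 CPM to 30.3 and 17.9 CPM with 6-thio-dG (log2 2.19 ± 0.37, edgeR adjusted p = 0.00161) and to 14.5 and 14.7 CPM with BIBR1532 (log2 1.47 ± 0.36, edgeR adjusted p = 0.0162). PIR, an iron-binding nuclear protein, went from 2.92 and 4.98 CPM to 14.9 and 18.1 CPM (log2 2.10 ± 0.36, edgeR adjusted p = 0.00189) and to 9.87 and 12.6 CPM (log2 1.54 ± 0.36, edgeR adjusted p = 0.0122). INPP4B, a phosphoinositide phosphatase, fell with both, from 28.3 and 31.6 CPM to 3.84 and 14.6 CPM with 6-thio-dG (log2 -1.69 ± 0.44, edgeR adjusted p = 0.0185) and to 6.68 and 9.16 CPM with BIBR1532 (log2 -1.92 ± 0.44, edgeR adjusted p = 0.0119). BCL2A1, an antiapoptotic BCL2 relative, had 9 counts in A375 control, 0 with 6-thio-dG and 93 with BIBR1532, and was called in both comparisons (edgeR adjusted p = 0.0287 and 0.00101). ACP5 and PIR with 6-thio-dG and BCL2A1 with BIBR1532 were kept in every alternative run. With BIBR1532, ACP5 was lost without control replicate 1 (0.0652) or BIBR1532 replicate 1 (0.103) or 2 (0.0949), PIR without BIBR1532 replicate 1 (0.0524) or 2 (0.123), and INPP4B without control replicate 2 (0.0642) or BIBR1532 replicate 1 (0.148) or 2 (0.104), each an edgeR adjusted p. With 6-thio-dG, INPP4B was lost without control replicate 1 (0.0523) or 2 (0.0787), and BCL2A1 without control replicate 2 (0.0622) or 6-thio-dG replicate 1 (0.0837) or 2 (0.0702). In LOX-IMVI BR, SIRPA fell with 6-thio-dG from 17.9 and 16.2 CPM to 5.69 CPM in each library (log2 -1.58 ± 0.32, edgeR adjusted p = 0.00398), and CDK2, a cell cycle kinase, by 0.98 on the log2 scale (edgeR adjusted p = 0.0235). Those were the 2 called there, 9.52% of the 21 (median -0.35), which is below the 17% of all genes called in that comparison. SIRPA was lost without 6-thio-dG replicate 1 (0.0598) or 2 (0.0565) and CDK2 without each of the 4 libraries in turn (0.139 to 0.191). With BIBR1532 in LOX-IMVI BR, edgeR called 0 of the 21, with 3 at an unadjusted p under 0.05 and 0 called by DESeq2 (median -0.07).

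The last list holds 10 tested genes of the state with low MITF. With 6-thio-dG in A375, where MITF was also lower, 4 of them fell and 0 rose, all 10 had a negative log2 fold change, and the median was -0.67, against -0.25 over symbol-named genes. The shares called were 40% of the 10 there and 30% each with BIBR1532 in A375 and with 6-thio-dG in LOX-IMVI BR. AXL, the receptor kinase that names this state, was at 1399.7 and 1646 CPM in A375 control and at 294 and 206 CPM with 6-thio-dG (log2 -2.61 ± 0.28, edgeR adjusted p = 9.14e-05). EGFR, JUN and FOSL1 fell by 2.28, 1.86 and 2.09 on the log2 scale (edgeR adjusted p = 0.00154, 0.00205 and 0.00244). These 4 falls were kept in every alternative run, while with upper-quartile scaling 3 of the 10 genes had a positive value. With BIBR1532 in A375, EGFR and NGFR fell by 1.15 and 1.20 on the log2 scale and WNT5A rose by 0.93 (edgeR adjusted p = 0.0452, 0.0461 and 0.0485; median -0.28). Each was lost without either BIBR1532 library and without 1 of the controls, replicate 1 for EGFR and replicate 2 for NGFR and WNT5A (0.109 to 0.384). In LOX-IMVI BR with 6-thio-dG, WNT5A fell from 494 and 473 CPM to 101 CPM in each library (log2 -2.26 ± 0.31, edgeR adjusted p = 0.000286), and TWIST1 and AXL fell by 1.67 and 1.07 on the log2 scale (edgeR adjusted p = 0.0056 and 0.0129; median -0.16). TWIST1 was lost without 6-thio-dG replicate 1 (0.0615) or 2 (0.0698) and AXL without each of the 4 libraries in turn (0.0874 to 0.138). With BIBR1532 in LOX-IMVI BR, edgeR called 0 of the 10, with 3 at an unadjusted p under 0.05 and 1 called by DESeq2 (median 0.40).

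Several calls of these lists were also lost under other settings. A fit of A375 alone lost AP3B1, BCL2A1, INPP4B, LEF1 and SYTL2 with 6-thio-dG (edgeR adjusted p from 0.0939 to 0.191) and ACP5, AP3B1, CREB1, EGFR, INPP4B, LYST, NGFR, PAX3, PIR, TFEC, WNT5A and ZEB2 with BIBR1532 (0.0807 to 0.276). Upper-quartile scaling lost LEF1 with 6-thio-dG (0.196) and EGFR, NGFR and PAX3 with BIBR1532 in A375 (0.105 to 0.133), and AXL, CDK2, TFAP2A and TPCN2 with 6-thio-dG in LOX-IMVI BR (0.095 to 0.157). The replicate block lost EGFR, NGFR and WNT5A with BIBR1532 in A375 (0.0682 to 0.0945), and CDK2 (0.0593) and TPCN2 (0.076) with 6-thio-dG and SYTL2 (0.0567) with BIBR1532 in LOX-IMVI BR. Restriction to symbol-named genes lost AP3B1, INPP4B and LEF1 with 6-thio-dG and CREB1, EGFR, NGFR, WNT5A and ZEB2 with BIBR1532 in A375, and TFAP2A, TPCN2 and SYTL2 in LOX-IMVI BR (0.0508 to 0.103). The filter of 1 CPM lost CREB1, EGFR, NGFR, WNT5A and ZEB2 in A375 and SYTL2 in LOX-IMVI BR, all with BIBR1532 (0.0505 to 0.0672). The SOX9 difference for BIBR1532 was lost with upper-quartile scaling, the replicate block, symbol-named genes only and the filter of 1 CPM (0.0534 to 0.0914). With BIBR1532, DESeq2 size factors lost NGFR in A375 (0.0533) and SYTL2 in LOX-IMVI BR (0.0615). No low-count filter lost PAX3 with BIBR1532 in A375 (0.072) and TPCN2 with 6-thio-dG in LOX-IMVI BR (0.0509). The EDNRB rise was lost with the GC correction and replicate block together (0.0628).

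**Figure D4:**
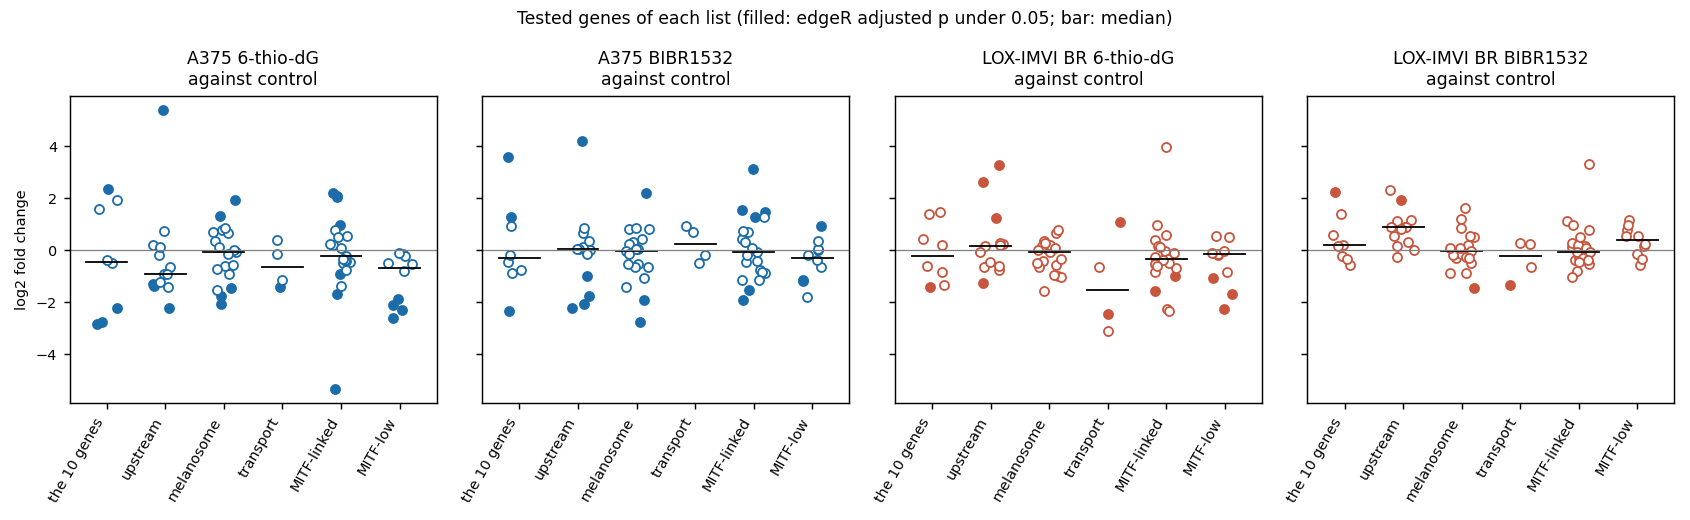
Log2 fold change against control of the tested genes in the set of 10 and in the 5 surrounding lists, for each line and compound, with filled points where the edgeR adjusted p was under 0.05 and a bar at the median. In A375 with 6-thio-dG the genes of the state with low MITF all lie below 0 (7 of 10 with upper-quartile scaling), while the melanosome list is spread around 0 in each of the 4 panels.

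Some genes followed MITF closely over the 12 libraries. Among 10198 symbol-named genes whose mean reached 5 CPM, the 5 with the highest Pearson correlation to MITF on log2 levels were GOLPH3L (r = 0.9729), STAMBPL1 (0.969), INPP4B (0.9628), FIP1L1 (0.9563) and NFXL1 (0.9517). The points share library depth and line, and the 12 libraries are 6 groups of 2, so these values are a description. GC content of the 5 was between 37.2 and 44.6%, near that of MITF at 41.4%. GOLPH3L was at 67.1 ± 8.32 CPM in A375 control (mean ± SD, n = 2), 36.8 ± 23.4 with 6-thio-dG and 32.9 ± 3.36 with BIBR1532, and at 33.0 ± 0.64, 34.8 ± 0.93 and 47.6 ± 1.75 CPM in the same order in LOX-IMVI BR. The genes most like SOX10 were TMEM246, DAAM2, PTGFRN, ANGPTL2 and PCDH1, with r of 0.9984 or above. Each had a mean of 25.8 CPM or more over the A375 libraries and of 0.35 CPM or less over those of LOX-IMVI BR, so these correlations follow the separation of the lines.

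Markers of other cell types were summed as a check on the cultures. The 7 leukocyte markers summed to 2.58 and 2.17 CPM in A375 control, 8.35 and 8.73 CPM with 6-thio-dG and 9.10 and 9.16 CPM with BIBR1532. In LOX-IMVI BR they summed to between 0.80 and 3.21 CPM. In A375, LYZ, ITGAM and CSF1R rose with 6-thio-dG and LYZ and ITGAM with BIBR1532, 3 and 2 of the 5 tested. These rises came alongside the changes of the melanocyte genes there. In LOX-IMVI BR, PTPRC, the leukocyte common antigen, rose with 6-thio-dG and ITGAM with BIBR1532, 1 of the 5 tested each. A fit of A375 alone lost ITGAM (edgeR adjusted p = 0.082) and CSF1R (0.0996) with 6-thio-dG and LYZ (0.09) with BIBR1532. These calls, and that of ITGAM in LOX-IMVI BR, were also lost without some single libraries. PTPRC had 3 counts in each A375 group, and CD3E was at 0 in 5 of the 6 groups. The 7 fibroblast markers summed to 13.3 to 26.1 CPM in A375. In LOX-IMVI BR they summed to 1842 and 1809 CPM in the control, 30.8 and 32.8 CPM with 6-thio-dG and 1572 and 1650 CPM with BIBR1532, most of it COL1A1 at 1640.4 and 1618 CPM in the control. The fall of RAB27A with 6-thio-dG in LOX-IMVI BR moved with this fall of fibroblast markers, whose part in it was not tested. Fewer cells of a type and less RNA per cell cannot be told apart in these bulk libraries. The 4 markers of retinal pigment epithelium, the other tissue that uses MITF, summed to 39.0 and 51.2 CPM in A375 control, 9.69 and 7.25 CPM with 6-thio-dG and 66.8 and 72.7 CPM with BIBR1532. In LOX-IMVI BR these markers were at 2.66 and 3.05 CPM in the control, 2.13 and 1.72 CPM with 6-thio-dG and 11.9 and 8.84 CPM with BIBR1532. The 4 Schwann cell markers, another SOX10 lineage, summed to 42.7 and 59.2 CPM in A375 control, 66.2 and 58.6 CPM with 6-thio-dG and 103 and 105 CPM with BIBR1532. They were at 19.2 and 19.4 CPM in LOX-IMVI BR control, 20.4 and 18.6 CPM with 6-thio-dG and 40.5 and 41.8 CPM with BIBR1532. The 5 endothelial markers summed to 18.7 and 34.4 CPM in A375 control, 6.68 and 8.33 CPM with 6-thio-dG and 26.5 and 25.5 CPM with BIBR1532. In LOX-IMVI BR they were at 5.62 and 5.10 CPM in the control, 2.01 and 1.52 CPM with 6-thio-dG and 4.73 and 4.91 CPM with BIBR1532. With 6-thio-dG, TIE1 fell and KDR rose in A375 and KDR fell in LOX-IMVI BR, of 3 tested. The KDR rise was lost in a fit of A375 alone (edgeR adjusted p = 0.0951) and without control replicate 2 or 6-thio-dG replicate 2 of A375. The KDR fall was lost without 6-thio-dG replicate 2 of LOX-IMVI BR. The 7 keratinocyte markers summed to between 142.6 and 333 CPM in A375 and between 62.9 and 90.4 CPM in LOX-IMVI BR. The part of the leukocyte, endothelial, retinal, Schwann cell and keratinocyte markers in the results was not tested.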

How the data were processed

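Total RNA was sequenced from non-strand-specific TruSeq libraries, per the labels' protocols, so reads of overlapping antisense genes cannot be told apart. The authors deposited 1 table of raw read counts (whole numbers) for each gene. STAR, Picard, GATK and featureCounts 1.5.1, and the builds GRCh37 and hg19, are named in the submitters' processing notes with no role given. Of 75253 rows, 54072 are NONCODE genes, and 4 rows with symbols turned into ambiguous dates were dropped (at most 0.000913% of a library's counts). Counts were tested with edgeR 4.0.16 (R 4.3.3): filterByExpr, TMM, 1 mean per group over all 12 libraries, robust quasi-likelihood with 6 residual degrees of freedom, and Benjamini-Hochberg adjustment over the genes tested in each of 9 comparisons. Counting intervals are exact, at 95%, and cover counting error only. A limit for no counts is 3 counts over the group. Lengths and GC content come from the longest coding GENCODE transcript, on GRCh38, and promoters from RefSeq. The GC correction uses per-library offsets fitted over 14362 symbol-named genes that passed the low-count filter, of 20992 rows with a GC value. The alternatives tried were upper-quartile factors, DESeq2 size factors, no low-count filter, at least 1 CPM in 2 libraries, each line alone, a replicate block, GC offsets with and without the block, symbol-named genes only, the DESeq2 1.42.0 test and leaving out each library. Named were the 10 genes, up to 4 called genes of each surrounding list per comparison with those needed to account for its count, and the 5 genes most like MITF and SOX10, on log2 of CPM + 1. The genes and lists were chosen with earlier results of these data known.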

Additional observations from a re-analysis of the deposited data

Results flagged for a closer look

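In 4 cases the effect of a compound differed between the lines in a test of the difference itself. The PMEL effect was lower in LOX-IMVI BR than in A375 for both compounds, by -2.94 on the log2 scale for 6-thio-dG and by -4.16 for BIBR1532. PMEL was between 0.07 and 0.32 CPM in all LOX-IMVI BR libraries, from 7 to 12 counts a group. With BIBR1532, MITF differed by 3.72 and TYRP1 by 3.02 in the other direction. Of these 4, the TYRP1 difference alone no longer passed after the GC correction, at 1.96 (edgeR adjusted p = 0.0727). None of the 4 calls was kept under every alternative run, and each was lost when some single libraries were left out. The comparisons share the control libraries of each line, and what underlies the differences was not tested.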

How the results depend on the processing

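Of the 25 calls of the 10 genes over the 9 comparisons, 9 were kept under every alternative run: PMEL and MLPH with 6-thio-dG in A375, PMEL with BIBR1532 in A375, MLPH between the compounds in A375, TYRP1 between them in LOX-IMVI BR, and MITF, SOX10, MLPH and RAB27A between the untreated lines. Over all alternatives and single genes, 922 values kept their side of the threshold, 73 lost it, 37 gained it and 1 reversed, which was MITF between the compounds in A375 without 6-thio-dG replicate 2 (-1.47 against 0.10, and 0.80 without replicate 1). The causes were not tested.

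Counts of called genes that moved by over 1.5 times were as follows, with the share of all genes called in parentheses. Upper-quartile factors called 2 with 6-thio-dG in LOX-IMVI BR (17.6%) and 2 for the 6-thio-dG difference between the lines (5.36%). No low-count filter called 2 with each compound in LOX-IMVI BR (10% and 2.66%). Fits of a line alone called 2 with 6-thio-dG (5.11%), 1 with BIBR1532 (3.85%) and 1 between the compounds (6.68%) in A375, and 3 with each compound in LOX-IMVI BR (62.8% and 44.8%). These fits did not test all 8 genes. MLANA and TYRP1 were not tested in A375 alone, nor PMEL, MLPH and GPR143 in LOX-IMVI BR alone. GC offsets, with or without the replicate block, called 2 with each compound in LOX-IMVI BR (29.6% and 10.8% without the block) and 3 for the 6-thio-dG difference (18.7%), and the DESeq2 test called 2 for that difference (7.14%). Leaving out single libraries gave 2 to 5 with 6-thio-dG and 1 to 4 with BIBR1532 in A375, 2 to 4 between the compounds there, 0 with 6-thio-dG and 0 to 1 with BIBR1532 in LOX-IMVI BR, 1 to 2 between the compounds there, 4 to 5 between the untreated lines, and 0 to 2 and 0 to 3 for the differences in effect of 6-thio-dG and BIBR1532.

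The shared replicate numbers are not said to mark a common culture. Same-numbered libraries deviated with correlations of -0.0888, -0.137 and 0.35 in A375 and between -0.0037 and 0.0292 in LOX-IMVI BR. A replicate block left 2 calls between the compounds in A375 and changed no other count of the 9 comparisons by over 1.5 times. With the block, the PMEL difference in the effect of 6-thio-dG was lost and that of MITF gained (edgeR adjusted p = 0.0702 and 0.0468).

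Over all genes, fits of a line alone called 1227 and 924 with 6-thio-dG and BIBR1532 in A375, against 5261 and 4594, and 15119 and 10802 in LOX-IMVI BR, against 4939 and 1046. Between the compounds they called 1604 against 4664 in A375 and 16112 against 5999 in LOX-IMVI BR. For the difference in the effect of BIBR1532, 1059 genes were called, against 3002 with no filter, 2108 with GC offsets and 2076 by DESeq2. For 6-thio-dG, 1612 were called, against 2507 and 2691 with no filter and GC offsets. Between the untreated lines GC offsets called 9048 of 14362 genes tested (63%), against 14505 of 29114 (49.8%). Leaving out single libraries gave 4461 to 10233 with 6-thio-dG and 937 to 5272 with BIBR1532 in A375, 1673 to 8103 between the compounds there, 1550 to 1864 and 209 to 402 with the compounds in LOX-IMVI BR, 2447 to 2770 between them, 10264 to 13673 between the untreated lines, and 475 to 6808 and 142 to 2268 for the differences in effect of 6-thio-dG and BIBR1532. Depth limits TYR and DCT throughout, and MLPH and GPR143 in LOX-IMVI BR.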
